A study of Homo sapiens with 9 samples.

Results

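The G1 cyclins and the inhibitors of cyclin-dependent kinases were described here in PANC-1, a long-established line of human pancreatic carcinoma cells. The set holds 5 cyclin genes (CCND1, CCND2, CCND3, CCNE1 and CCNE2) and 5 inhibitor genes (CDKN1A, CDKN1B, CDKN1C, CDKN2B and CDKN2C). Its members were every probe set that the platform's annotation pairs with 1 of these genes, which gave 21 of the 54675 probe sets on the array. These covered 9 of the 10 genes. CDKN2C was not analysed here, since no probe set carried its symbol in the annotation used. Cells in 6-well plates received 5 uM BRD7552, a small molecule, and 3 arrays were made after 6 h and 3 after 72 h. A further 3 arrays came from cells given DMSO, the solvent, whose labels carry no exposure time. The submitters chose the dose as the smallest with full induction of PDX1, a pancreatic homeobox factor. The labels do not say that replicates came from separate cultures, and p-values then cover only the spread among these samples, which may be technical.

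Progress through the G1 phase of the cell cycle depends on D-type cyclins, which activate the kinases CDK4 and CDK6, and then on E-type cyclins, which activate CDK2. These kinases phosphorylate the retinoblastoma protein and so release E2F factors that switch on genes of DNA replication. Inhibitors of the Cip/Kip family (p21, p27 and p57, from CDKN1A, CDKN1B and CDKN1C) bind cyclin and kinase together, while those of the INK4 family (p15 from CDKN2B, p18 from CDKN2C) bind CDK4 and CDK6. The level of p27 is known to be set largely by protein degradation, and these arrays measured RNA only.

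Of the 9 genes, 8 had a brightest probe set above the filter on low values, a mean signal of 17.8 on a linear scale. They were CCND1, CCND2, CCND3, CCNE1, CCNE2, CDKN1A, CDKN1B and CDKN1C, and the 1 gene below the filter was CDKN2B. The fit was made to 12678 genes at once with limma, and a gene is said to have risen or fallen where its Benjamini-Hochberg adjusted p over all these genes was below 0.05. All changes are log2 differences of the signal, with the standard error (SE) of the limma estimate. All 21 probe sets were also fitted together with the other probe sets of the array, 54613 in all, which puts probe sets of 1 gene on equal terms.

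The upstream sequences of 3 genes are shown because their 72 h calls held under every alternative tried, CDKN1B as higher and CDKN1A and CCNE1 as lower, and because each has 1 listed start. Each run is the 250 bases before the transcription start in the RefSeq table for GRCh38.p14, on the strand of the gene. CDKN1B lies at chr12:12717118-12717367, CDKN1A at chr6:36678464-36678713 and CCNE1 at chr19:29811741-29811990, all on the plus strand. Capitals mark CCAAT and GGGCGG, the cores of the CCAAT box and the GC box, on either strand, with CCGCCC as the reverse of GGGCGG.
CDKN1B: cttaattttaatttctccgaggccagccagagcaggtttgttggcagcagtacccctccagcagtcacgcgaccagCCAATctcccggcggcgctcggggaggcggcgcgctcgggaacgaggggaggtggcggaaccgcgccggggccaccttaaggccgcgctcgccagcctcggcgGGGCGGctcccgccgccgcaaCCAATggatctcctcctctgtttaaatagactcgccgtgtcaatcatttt
CDKN1A: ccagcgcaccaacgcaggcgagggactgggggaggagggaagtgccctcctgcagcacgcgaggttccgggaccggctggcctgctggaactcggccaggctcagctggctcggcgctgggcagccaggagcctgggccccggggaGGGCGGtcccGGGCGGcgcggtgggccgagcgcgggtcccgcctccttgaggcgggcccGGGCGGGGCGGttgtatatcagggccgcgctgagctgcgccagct
CCNE1: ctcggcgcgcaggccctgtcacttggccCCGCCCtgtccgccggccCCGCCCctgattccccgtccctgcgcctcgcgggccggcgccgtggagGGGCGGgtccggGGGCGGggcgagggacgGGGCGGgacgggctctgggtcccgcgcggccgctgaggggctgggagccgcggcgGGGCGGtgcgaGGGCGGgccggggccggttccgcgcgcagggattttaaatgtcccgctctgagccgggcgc
The CDKN1B run held 2 CCAAT matches, at 174 and 50 bases before the start, and 1 GGGCGG match at 71 bases. In CDKN1A there were 4 GGGCGG matches and 0 CCAAT matches, and in CCNE1 7 and 0. At least 1 CCAAT match was present in 32% of the 35116 promoter windows of this length in the table, and at least 1 GGGCGG match in 42.6%. The E2F words TTCGCGC or TTGGCGC or TTCCCGC or TTGCCGC, found in 10.9% of windows on either strand, were not in these 3 windows. Nor were TATAAA (10.7%), GTAAACA (2.98%), CACGTG (6.34%), TTTGAA (13.3%), TGACGT (7.10%), TGAGTCA or TGACTCA (4.20%), CTTTGAT or CTTTGAA (5.94%) and TGATGCA (2.16%). CTTTGAA overlaps TTTGAA. The share of G and C was 64.4% for CDKN1B, 76.4% for CDKN1A and 81.2% for CCNE1, against a median of 58% in the promoter table. The shares of windows with a match were not adjusted for this. Such matches describe letters only, and 6 of the 10 genes had an entry in the promoter table.

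Facts of the whole series bear on the 72 h values. The 3' to 5' signal ratio of the ACTB control was 2.07 to 2.21 on the 72 h arrays, against 1.91 to 2.01 for DMSO and 1.74 to 2.05 at 6 h. The upper quartile of signal was 97.5 and 99.7 on 72 h replicates 2 and 3 and at least 112 on the other arrays. Falls made up 68.7% of all genes called at 72 h as deposited, but 54.3% after quantile normalization, 52.5% after cyclic loess, 60.7% with arrays centred on their medians and 31.7% with arrays scaled to their upper quartiles. That last scaling, chosen after the data had been seen, moved the median log2 change of all genes at 72 h from -0.062 to 0.076. All 6 markers of the line (KRT7, KRT8, KRT18, KRT19, VIM and MUC1) lay above the filter, with a summed signal of 49237 to 50229 in DMSO, 49453 to 49587 at 6 h and 42730 to 44122 at 72 h. Of the markers of other cell types, 1 of 4 acinar (CELA3A, mean signal 20.5), 1 of 4 leukocyte (CD79A, 26.2), 1 of 4 endothelial (PECAM1, 20.4) and 2 of 5 fibroblast genes (COL1A1, 569, and DCN, 30.3) lay above the filter. The others, among them PTPRC, CDH5, COL3A1, LUM and PDGFRA, lay below it. The summed signal of the acinar markers ran from 48.9 to 52.2 in DMSO, 45.5 to 51.8 at 6 h and 44.1 to 50.2 at 72 h. For leukocytes these ranges were 54.7 to 58.8, 46.1 to 54.3 and 47.0 to 61.8, and for endothelium 44.2 to 54.6, 46.6 to 50.5 and 48.1 to 63.6. For fibroblasts they were 633 to 715, 585 to 670 and 514 to 637, so the DMSO and 72 h ranges overlapped for the acinar, leukocyte, endothelial and fibroblast lists. The part of RNA quality, scaling or these markers in the 72 h values was not tested beyond the alternative scalings.

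At 6 h 0 of the 8 genes passed the limma test, where 0.473% of the 12678 genes did (0.363% as higher and 0.11% as lower). An unadjusted p under 0.05 was found for 4 of the 8 (CCND1, CCNE1, CDKN1A and CDKN1B) and for 4.59% of all genes. With array weights 2 passed, CDKN1A as lower and CDKN1B as higher. For CCND1, CCNE1 and CDKN1A, 3 of the 8, every 6 h array lay on one side of every DMSO array, against 12.2% of all genes. At 72 h 7 of the 8 changed. CDKN1B and CDKN1C rose, and CCND1, CCND3, CCNE1, CCNE2 and CDKN1A fell. Over all genes 26.6% changed at 72 h, 8.33% as higher and 18.3% as lower. This share depends on the filter. With the filter raised to the upper quartile, 3006 of 7893 genes were called, and 6 of the 6 genes of the set that remained. The median log2 change of the 8 genes was -0.22, against -0.062 over all genes. The same 7 genes had no overlap between the 72 h and DMSO values, against 36.9% of all genes. Between the times 5 genes differed, CDKN1B and CDKN1C as higher at 72 h and CCND3, CCNE1 and CDKN1A as lower, where 24% of all genes differed (7.28% as higher and 16.7% as lower). The arrays of these 5 genes did not overlap between the times, against 33.7% of all genes. The 6 h and 72 h comparisons with DMSO share their 3 control arrays, and time in culture cannot be told apart from exposure.

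**Figure D1:**
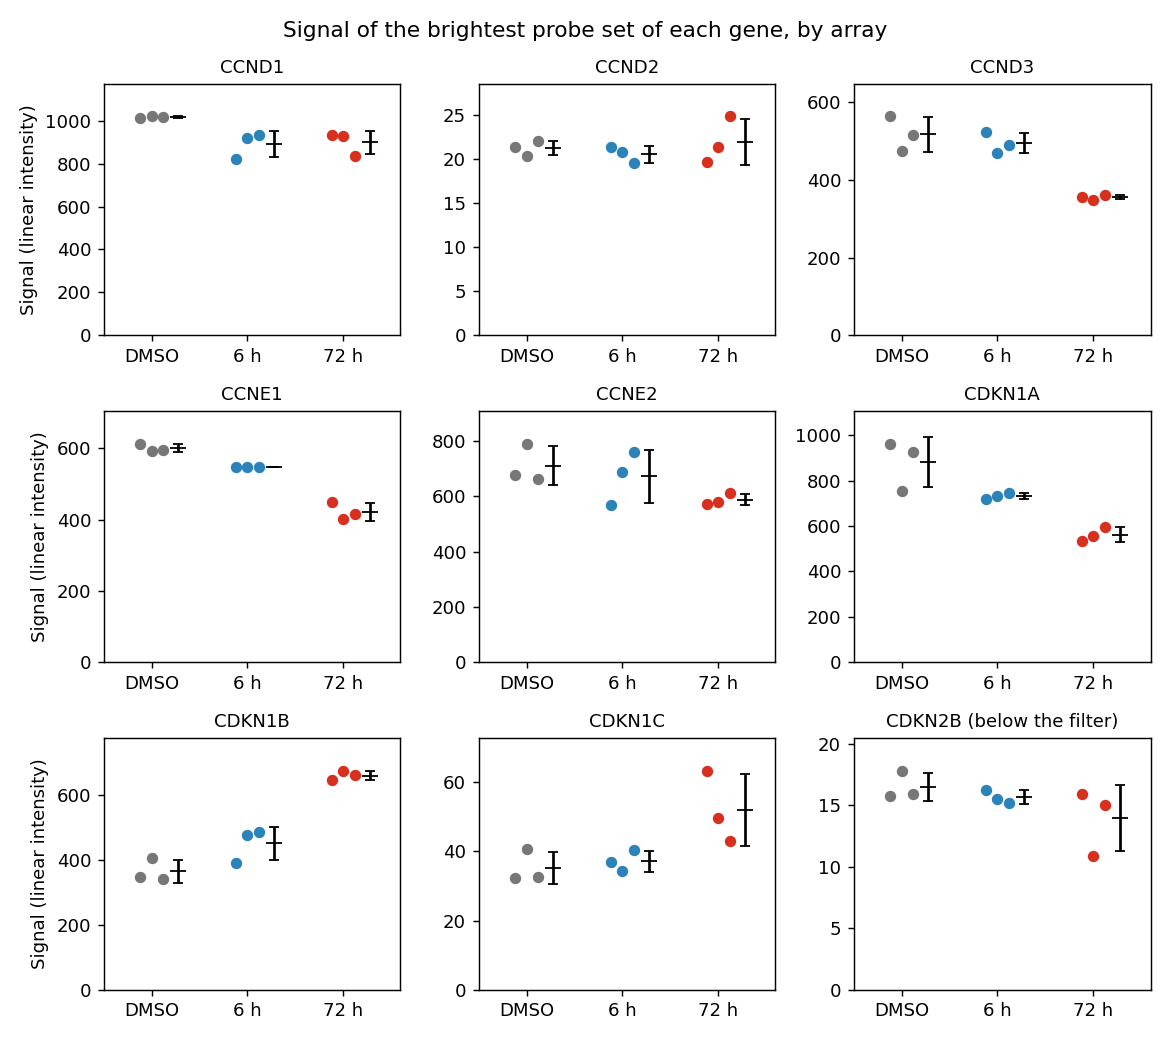
Signal (linear intensity, each axis from 0) of the brightest probe set of 9 genes on each of the 9 arrays, in the DMSO (grey), 6 h (blue) and 72 h (red) groups, with the group mean and SD (n = 3) as black bars. CDKN1B is highest at 72 h, with means of 365, 451 and 660, while CDKN1A steps down through 880, 731 and 562, and CCND2, CDKN1C and CDKN2B are dim throughout.

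Among the D-type cyclins, CCND3 and CCND1 fell at 72 h, by 0.54 and 0.18 on the log2 scale, and CCND2 did not pass. CCND3 encodes cyclin D3. Its brightest probe set (201700_at) read 563, 474 and 515 on the DMSO arrays, 523, 470 and 491 at 6 h, and 356, 349 and 361 at 72 h. Every 72 h array lay below every other array, and the 6 h arrays lay within or just below the DMSO range. Its log2 change at 6 h was -0.063 ± 0.069 (SE). At 72 h the change was -0.54 ± 0.069, a ratio to DMSO of 0.689 with a 95% interval of 0.622 to 0.763 (limma adjusted p = 4.3e-05). The difference between the times was -0.48 ± 0.069 (limma adjusted p = 0.00018). The other CCND3 probe set (1562028_at) was dim, just above the filter. It read 21.1, 18.4 and 18.4 in DMSO and 18.4, 16.4 and 22.6 at 72 h, so these groups overlapped. Averaged over both probe sets, CCND3 no longer passed at 72 h against DMSO (log2 -0.28, adjusted p = 0.069) or against 6 h (-0.12).

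CCND1 encodes cyclin D1, a cyclin that growth factor signals raise. Its brightest probe set (208712_at) was close to constant in DMSO, at 1011, 1020 and 1017. It read 822, 919 and 933 at 6 h and 933, 928 and 836 at 72 h. All 6 treated arrays lay below the DMSO arrays, and the 6 h and 72 h ranges overlapped. The log2 change was -0.19 ± 0.058 at 6 h, which did not pass (limma adjusted p = 0.396), and -0.18 ± 0.058 at 72 h, which did (adjusted p = 0.033). The 95% interval of the ratio at 72 h was 0.812 to 0.963. The 72 h call ended under 11 of 23 alternatives, over which the adjusted p ran from 0.016 to 0.736. Among these were leaving out any 1 of the 3 DMSO arrays (adjusted p = 0.080, 0.080 and 0.091), leaving out 72 h replicate 3 (0.130), and centring on array medians (0.335). The second bright probe set of CCND1 (208711_s_at) read 597, 676 and 612 in DMSO, 492, 677 and 599 at 6 h and 661, 515 and 681 at 72 h. Its groups overlapped at both times, with log2 changes of -0.10 ± 0.12 and -0.030 ± 0.12. Between the times CCND1 differed by 0.013 ± 0.058, a ratio of 0.927 to 1.10 by the 95% interval.

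CCND2 encodes cyclin D2. All 4 of its probe sets were dim, and 1 (231259_s_at) lay above the filter. That probe set read 21.4, 20.3 and 22.0 in DMSO, 21.4, 20.7 and 19.5 at 6 h and 19.7, 21.4 and 24.8 at 72 h, with overlapping groups and a log2 change at 72 h of 0.042 ± 0.14 (limma adjusted p = 0.871). The next probe set (200953_s_at), below the filter, read 14.4, 13.2 and 15.4 in DMSO, 14.3, 15.9 and 16.8 at 6 h and 18.2, 23.6 and 18.0 at 72 h. Its 72 h arrays lay above all others, but among all probe sets it did not pass (log2 0.47 ± 0.14, limma adjusted p = 0.073). The remaining CCND2 probe sets stood at 0.29 and 0.21. With the 4 probe sets averaged, CCND2 passed as higher at 72 h (log2 0.25, adjusted p = 0.046).

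Both E-type cyclins fell at 72 h, CCNE1 by the larger amount on the brightest probe set. CCNE1 encodes cyclin E1, which activates CDK2 at the entry to S phase. Its brightest probe set (213523_at) read 613, 593 and 594 in DMSO, 547, 547 and 548 at 6 h and 451, 402 and 416 at 72 h. The 3 groups did not overlap one another. The SD at 6 h was 0.215 signal units against 11.1 in DMSO and 25.2 at 72 h, and equal or near equal values between arrays were common in the deposited table, where 59.2% of probe sets held exact ties. The log2 change was -0.13 ± 0.057 at 6 h, not passing (limma adjusted p = 0.968), and -0.51 ± 0.057 at 72 h (ratio 0.704, 95% interval 0.647 to 0.765, adjusted p = 1.3e-05). Between the times CCNE1 fell by 0.37 on the log2 scale (SE 0.057, adjusted p = 0.00026). The 72 h call against DMSO held under all 23 alternatives, with values from -0.55 to -0.30. The call between the times ended with the probe sets averaged (-0.22, adjusted p = 0.091). The other CCNE1 probe set (242105_at) lay below the filter, with mean signals of 9.58 (DMSO), 9.32 (6 h) and 8.90 (72 h).

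CCNE2 encodes cyclin E2, which also pairs with CDK2. Its brightest probe set (205034_at) read 677, 790 and 661 in DMSO, 567, 688 and 759 at 6 h and 573, 578 and 611 at 72 h. The 72 h arrays lay below the DMSO arrays but overlapped the 6 h arrays. The log2 change at 72 h was -0.27 ± 0.091 (ratio 0.831, 95% interval 0.726 to 0.950, limma adjusted p = 0.040), and at 6 h -0.085 ± 0.091. This call ended under 14 of 23 alternatives, over which the adjusted p ran from 0.0030 to 0.345. They included cyclic loess (0.072), array medians (0.148), the fit without 6 h replicate 2 (0.052), and leaving out DMSO replicate 1 or 2 (0.060 and 0.180) or any 1 of the 72 h arrays (0.101, 0.115 and 0.061). Against 6 h the change at 72 h was -0.18 ± 0.091 (adjusted p = 0.165), and it passed with the probe sets averaged (-0.52, adjusted p = 0.00575) and without 6 h replicate 1 (-0.30, adjusted p = 0.014).

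The second CCNE2 probe set (211814_s_at) was dimmer and changed more. It read 117, 122 and 159 in DMSO, 103, 151 and 143 at 6 h and 83.2, 71.1 and 61.8 at 72 h. All 72 h arrays lay below all others. Fitted among all probe sets, its log2 change at 72 h was -0.87 ± 0.16 (ratio 0.545, 95% interval 0.426 to 0.698, limma adjusted p = 0.0051), and it was also lower than at 6 h (-0.87 ± 0.16, adjusted p = 0.0067). Within each array the log2 signal of this probe set minus that of the brighter one was -2.43 ± 0.33 in DMSO and -3.04 ± 0.26 at 72 h (SD, n = 3). The difference between these groups was -0.61, with p = 0.1 in a two-sided exact permutation test, the smallest p that 3 arrays against 3 allow. This comparison of the probe sets was chosen after their values were seen.

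**Figure D2:**
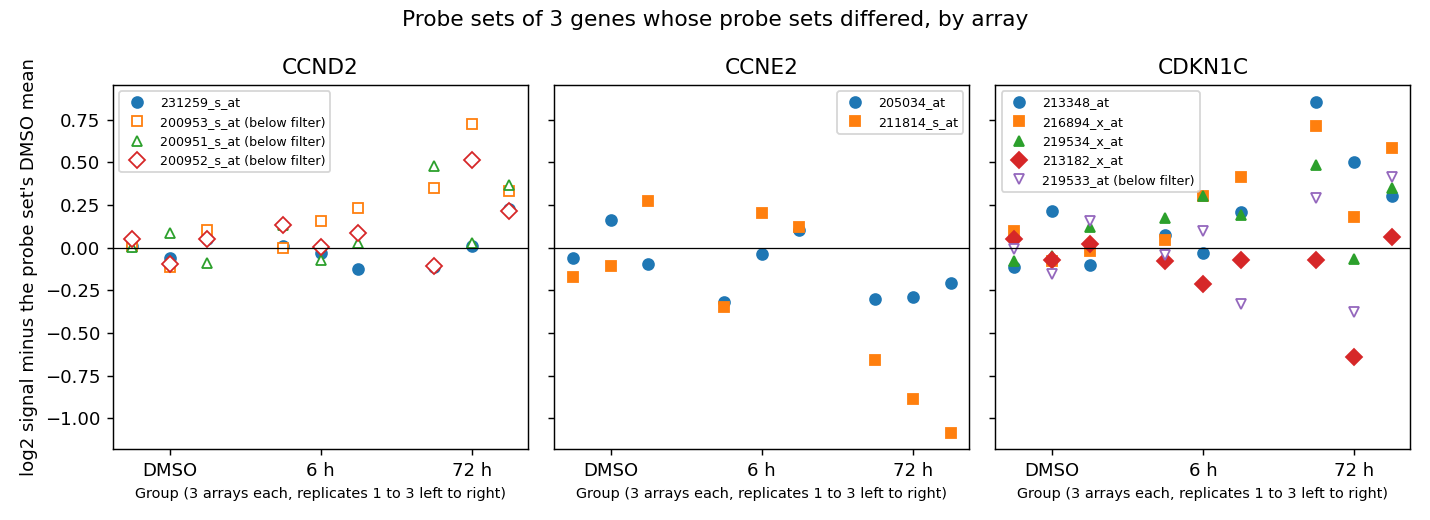
The log2 signal of every probe set of CCND2, CCNE2 and CDKN1C on each array, minus the mean of that probe set over the DMSO arrays, with open symbols for probe sets below the filter on low values. At 72 h the dimmer CCNE2 probe set (squares) lies below the brighter one (circles) on all 3 arrays, and the probe sets of CDKN1C spread to both sides of 0.

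The Cip/Kip inhibitors moved in different directions. CDKN1B encodes p27, an inhibitor known for holding cells out of the cycle. Its single probe set (209112_at) read 346, 406 and 342 in DMSO, 391, 475 and 486 at 6 h and 645, 674 and 660 at 72 h. The 72 h arrays lay far above the rest, and 6 h replicate 1 lay within the DMSO range while the other 6 h arrays lay above it. CDKN1B rose 1.81-fold at 72 h (log2 0.86 ± 0.085, 95% interval 1.60 to 2.06, limma adjusted p = 3.5e-06), and this was the 48th highest of 12678 changes. At 6 h its log2 change was 0.30 ± 0.085 and did not pass (adjusted p = 0.290). It passed at 6 h with array weights (0.39, adjusted p = 0.0024) and without 6 h replicate 1 (0.40, adjusted p = 0.037). From 6 h to 72 h it rose 1.47-fold (log2 0.56 ± 0.085, adjusted p = 0.00026). The 72 h calls against DMSO and against 6 h held under all 23 alternatives.

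CDKN1A encodes p21, an inhibitor induced after DNA damage. Its single probe set (202284_s_at) read 962, 755 and 924 in DMSO, 718, 731 and 744 at 6 h and 534, 555 and 597 at 72 h. The 3 groups did not overlap, although DMSO replicate 2 lay close to the 6 h arrays. CDKN1A fell by 0.64 on the log2 scale at 72 h (SE 0.076, ratio 0.641, 95% interval 0.573 to 0.718, limma adjusted p = 2.3e-05). The log2 change at 6 h was -0.26 ± 0.076, not passing (adjusted p = 0.359). It passed at 6 h with array weights (-0.29, adjusted p = 0.017) and without DMSO replicate 2 (-0.37, adjusted p = 0.015). Between the times it fell by 0.38 (SE 0.076, adjusted p = 0.0022), a call that ended with arrays scaled to their upper quartiles (-0.23, adjusted p = 0.102). Against DMSO the 72 h fall held under all 23 alternatives, from -0.75 to -0.50.

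CDKN1C encodes p57, an imprinted inhibitor, and was dim on all 5 of its probe sets. The brightest (213348_at) read 32.3, 40.6 and 32.6 in DMSO, 36.9, 34.2 and 40.4 at 6 h and 63.3, 49.5 and 43.2 at 72 h. All 72 h arrays lay above the others, with an SD at 72 h of 10.3 against 4.73 in DMSO. It rose 1.47-fold at 72 h (log2 0.55 ± 0.16, 95% interval 1.16 to 1.86, limma adjusted p = 0.018), and from 6 h to 72 h 1.39-fold (log2 0.47 ± 0.16, adjusted p = 0.044). The rise against DMSO no longer passed without DMSO replicate 1 or 3 (adjusted p = 0.081 and 0.082), without 72 h replicate 1 (0.053) or with the probe sets averaged (log2 0.24, adjusted p = 0.211). The call between the times ended under 14 of 22 alternatives, with an adjusted p from 0.0027 to 0.399. It ended with the replicate block (0.058) and without any 1 of the 3 6 h arrays, of DMSO replicates 1 and 3, or of 72 h replicates 1 and 2.

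The other CDKN1C probe sets did not all point one way. The second (216894_x_at) read 30.7, 27.2 and 28.4 in DMSO and 47.1, 32.5 and 43.1 at 72 h, without overlap (log2 0.49 ± 0.16, limma adjusted p = 0.086 among all probe sets). The third (219534_x_at) stood at 0.26 and the fourth (213182_x_at) at -0.22, with 72 h values of 24.8, 16.7 and 27.2 that overlapped DMSO. On equal terms with all probe sets the brightest itself had a limma adjusted p of 0.052 at 72 h, so CDKN1C was called in the gene fit but not in this one. In the gene fit without the filter, over 19775 genes, it passed (limma adjusted p = 0.034).

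Of the INK4 family, CDKN2B, which encodes the TGF-beta induced inhibitor p15, was not above the filter. Its brighter probe set (207530_s_at) read 15.8, 17.8 and 15.9 in DMSO, 16.3, 15.6 and 15.2 at 6 h and 15.9, 10.9 and 15.1 at 72 h. The groups overlapped at 72 h, where 1 array of the 3 was low, and no change was called among all probe sets (log2 -0.26 ± 0.15, limma adjusted p = 0.412). The dimmer probe set (236313_at) lay between 5.06 and 6.96 on all 9 arrays, near the lowest value of the whole table (4.54).

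Over all 21 probe sets, 1 was called higher at 72 h (CDKN1B) and 4 lower (the brightest of CCND3 and CCNE1, the dimmer of CCNE2, and CDKN1A), where 7.45% of 54613 probe sets were called (2.06% higher and 5.38% lower). At 6 h limma called 0 of 21, against 0.0732% of all probe sets (0.0677% higher and 0.00549% lower). Between the times the same 5 probe sets as at 72 h against DMSO were called in the same directions, against 6.46% of all (1.61% higher and 4.85% lower).

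**Figure D3:**
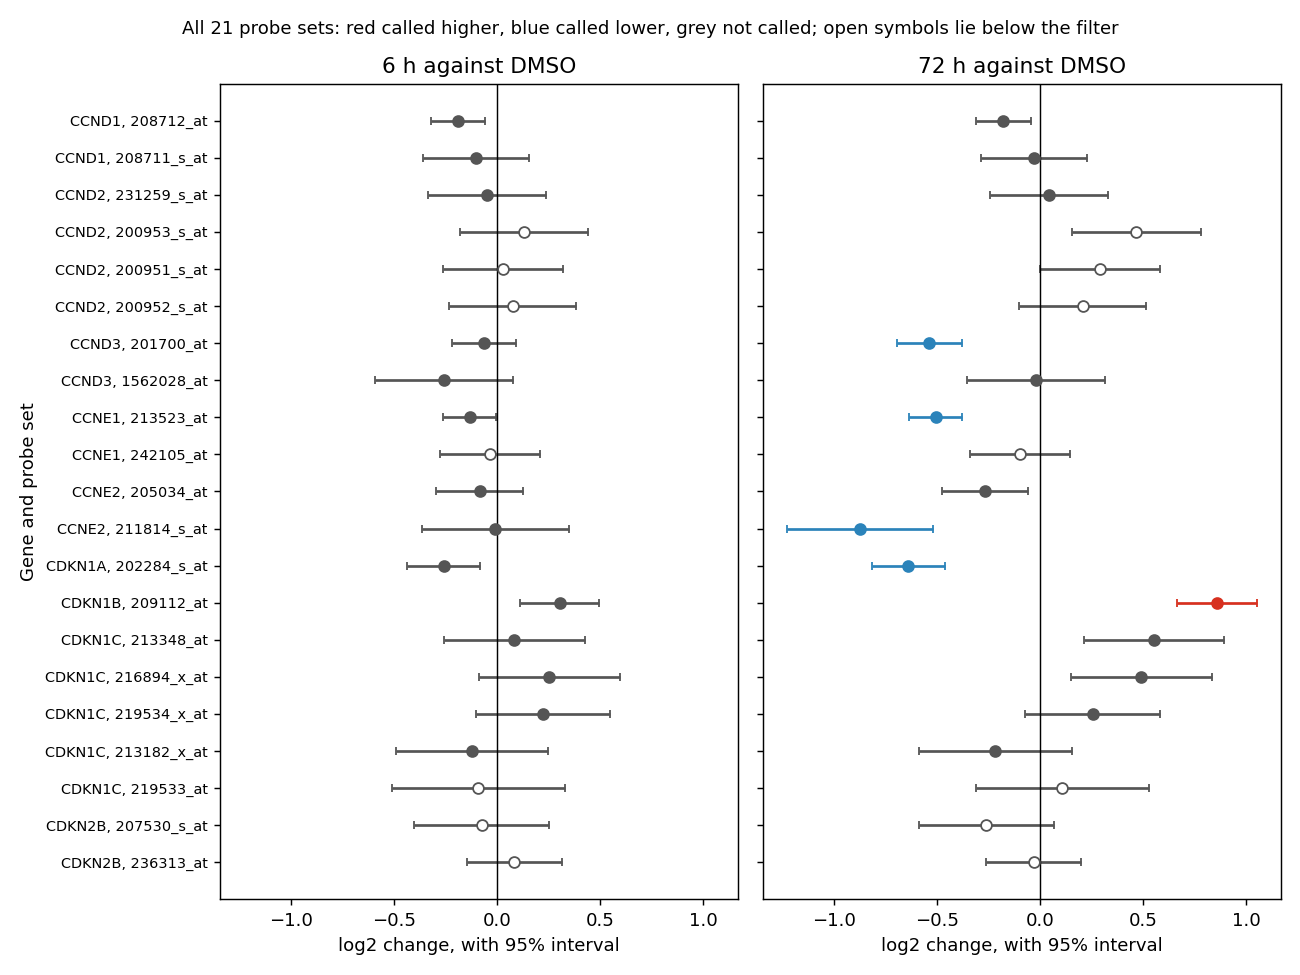
The log2 change of each of the 21 probe sets against DMSO with its 95% interval (bars), at 6 h on the left and 72 h on the right, fitted among 54613 probe sets, with open symbols below the filter on low values. At 6 h all are grey, while at 72 h CDKN1B (0.86) is red and CCND3 (-0.54), CCNE1 (-0.51), CDKN1A (-0.64) and the dimmer CCNE2 probe set (-0.87) are blue.

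The kinases that these cyclins activate were described from a list of G1 kinases, their activators and further inhibitors, of which 12 of 13 genes were tested. At 72 h 4 fell, 3 rose and 5 did not pass, where 26.6% of all genes changed, with a median log2 change of -0.068 against -0.062 over all genes. CDC25A, the phosphatase that activates CDK2, read 275, 294 and 276 in DMSO and 189, 142 and 175 at 72 h and fell by 0.75 on the log2 scale (SE 0.10, limma adjusted p = 9.4e-05). CDK2 itself read 633, 652 and 679 in DMSO, 605, 603 and 603 at 6 h and 435, 479 and 430 at 72 h and fell by 0.55 (SE 0.057, adjusted p = 6.3e-06). For both genes the 72 h arrays lay below all others, and each had a further probe set above the filter that was also called lower. Another CDC25A probe set above the filter (mean signal 95.7) stood at -0.48 and did not pass among all probe sets (limma adjusted p = 0.150). CCNG1, which encodes cyclin G1, rose 1.44-fold, and CDKN3, a phosphatase that acts on CDK2, rose 1.38-fold. CDK4 fell by 0.30 (SE 0.039, adjusted p = 4.2e-05), and CDK6 differed from DMSO by 0.0023 ± 0.045. These 2 kinases fall outside the naming rule and were picked, for their pairing with D-type cyclins, after their values had been seen. At 6 h limma called 0 of the 12, and the groups did not overlap for 4 of them, against 12.2% of all genes. The calls of CDC25A, CDK2, CCNG1 and CDKN3 at 72 h held under the 4 other scalings and without any 1 of the 9 arrays.

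Downstream of the kinases, 4 of 16 pocket protein and E2F genes fell at 72 h, 0 rose and 12 did not pass, with a median of -0.13. This count of calls lies near the 26.6% of all genes that changed (18.3% as lower). E2F5 fell by 0.37 on the log2 scale (SE 0.075), E2F7, a repressor of the family, by 0.36 (SE 0.077), and TFDP1, the partner of E2F factors, by 0.27 (SE 0.050). E2F1, which drives genes of S phase, fell by 0.33 (SE 0.10, limma adjusted p = 0.025), a call lost under each of the 4 other scalings and without DMSO replicate 3 or 72 h replicate 1 or 2. TFDP1 no longer passed with arrays centred on their medians or scaled to their upper quartiles. With the latter scaling the list had 2 lower calls and 1 higher, where 31.7% of the calls over all genes were lower. Its median was then 0.011 against 0.076 for all genes. At 6 h 0 of the 16 were called by limma, where the groups did not overlap for 1, against 12.2% of all genes.

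Among 22 genes of S phase and mitosis, 8 fell and 3 rose at 72 h and 11 did not pass, where 18.3% of all genes fell and 8.33% rose, with a median of -0.11. CDC6, a loader of the replicative helicase, fell by 0.45 (SE 0.062, limma adjusted p = 9.1e-05), and the helicase subunit genes MCM2 and MCM4 fell by 0.31 (SE 0.051) and 0.31 (SE 0.062). TOP2A, a topoisomerase, rose 1.22-fold by its brightest probe set, whose arrays overlapped between the groups, while its other bright probe set stood at -0.040. The call of TOP2A was lost without DMSO replicate 1 or 3 or 72 h replicate 1 or 3. The remaining calls fall outside the naming rule and were picked after their values had been seen. CCNB2 rose by 0.21 (SE 0.039, limma adjusted p = 0.00098) and AURKA by 0.17 (SE 0.046, adjusted p = 0.0105), both without overlap between the groups. AURKB (-0.27), MCM7 (-0.24), MCM5 (-0.22), MCM6 (-0.14) and MCM3 (-0.13) were the other lower calls. With arrays centred on their medians the list held 2 lower and 2 higher calls, where 1266 of all 12678 genes were called lower and 820 higher. With arrays scaled to their upper quartiles it held 1 lower and 5 higher, where 31.7% of the calls over all genes were lower. CDC6 stayed called in both, the MCM4 call was lost in both, and the MCM2 call was lost with upper quartile scaling.

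**Figure D4:**
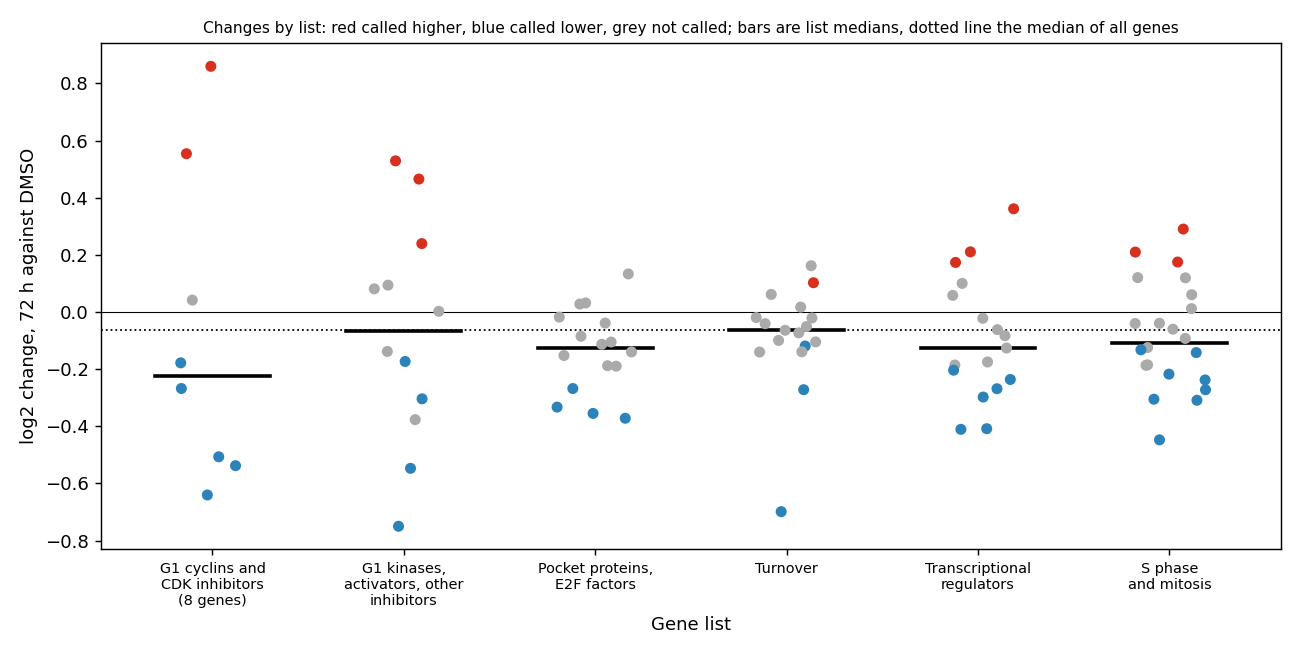
The log2 change at 72 h against DMSO of each tested gene in 6 lists (points), coloured red for called higher, blue for called lower and grey for not called, with list medians as bars and the median of all genes (-0.062) as the dotted line. The 8 G1 cyclin and inhibitor genes run from CDKN1A (-0.64) to CDKN1B (0.86), and 0 of the 16 pocket protein and E2F genes are called higher as deposited, against 1 with arrays scaled to their upper quartiles.

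Of 17 genes that act on the stability of G1 cyclins and inhibitors, 3 fell, 1 rose and 13 did not pass at 72 h, where 26.6% of all genes changed, with a median of -0.064 against -0.062 over all genes. FBXO4, an F-box protein that acts on cyclin D1, fell by 0.70 on the log2 scale (SE 0.14, limma adjusted p = 0.0017), and its dimmer probe sets below the filter stood at -0.31 and 0.034. CUL1, the scaffold of the SCF ubiquitin ligase, fell by 0.27 (SE 0.054), and CKS1B, a cofactor of p27 degradation, by 0.12 (SE 0.037). CKS1B turned to 0.019 with arrays scaled to their upper quartiles and lost its call there, with median centring, and without DMSO replicate 1 or 3 or 72 h replicate 3. CUL1 lost its call under the same scalings. SKP1, an SCF subunit, rose 1.07-fold, a call lost with median centring and with cyclic loess and without DMSO replicate 1 or 2 or 72 h replicate 3. SKP2, the F-box protein that marks p27 for degradation, stood at -0.10 ± 0.057 (adjusted p = 0.226) and was picked for that role after its value had been seen.

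Of 17 tested transcriptional regulators known to act on these genes, 6 fell, 3 rose and 8 did not pass at 72 h. Over all genes 18.3% fell and 8.33% rose, and the list median was -0.13 against -0.062. With arrays centred on their medians the list held 3 lower and 1 higher, and with upper quartile scaling 2 lower and 4 higher. Quantile normalization and cyclic loess kept 6 lower and 3 higher, with list medians of -0.012 and -0.016. FOSL1 and JUN, subunits of AP-1, fell by 0.41 (SE 0.051) and 0.41 (SE 0.036) on the log2 scale. MYC, which raises cyclin and lowers inhibitor transcription, fell by 0.30 (SE 0.046, limma adjusted p = 0.00024), a call lost with arrays scaled to their upper quartiles (-0.16). TCF7L2, a factor of Wnt signalling, rose 1.28-fold, and 4 further probe sets of this gene were called higher as well. At 6 h JUN was the 1 gene of these 5 lists that was called, at -0.18 (SE 0.036, adjusted p = 0.044). That call was lost without any 1 of the 3 DMSO or the 3 6 h arrays, without 72 h replicate 2 or 3, under 2 of the other scalings and with the replicate block. MXD1, a MYC antagonist, fell between the times by 0.34 (SE 0.10), which was lost under each other scaling and without 6 h replicate 1 or 3 or 72 h replicate 3. In the S phase and mitosis list AURKB, a mitotic kinase, fell between the times by 0.26 (SE 0.068), which was lost with median centring, upper quartile scaling and without 6 h replicate 2.

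The genes whose log2 signal over the 9 arrays was most like that of CDKN1B were LGR4 (Pearson r = 0.987), MAP2 (0.987) and MTO1 (0.987). Their log2 changes at 72 h were 0.91, 0.74 and 0.50. For CDKN1A they were TOMM34 (r = 0.970), LRRC47 (0.969) and CCN2 (0.967), with changes of -0.38, -0.20 and -0.60. For CCND1 they were PRRG1 (0.963), TFB2M (0.957) and ZBTB18 (0.952). Their 72 h changes of -0.24, -0.13 and -0.22 did not pass (limma adjusted p = 0.057, 0.079 and 0.054). These are descriptions over 9 arrays in 3 groups, which share the step between groups. Within the set CDKN1B ran against CDKN1A (r = -0.94), CCND3 (-0.96) and CCNE1 (-0.95) over the same arrays, while CCND3 and CCNE1 ran together (0.947). The correlation of CDKN1B was weaker with CCND1 (-0.47), CCNE2 (-0.45) and CCND2 (0.13), and it was 0.82 with CDKN1C.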

How the data were processed

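Each of 9 samples was hybridised to 1 Affymetrix array, 3 per group. The authors deposited probe set intensity on a linear scale, from 4.54 to 25052, and the submitters' processing notes name MAS5, without version or scaling. Exact ties between arrays occurred for 59.2% of probe sets, which can make a spread within a group too small. Probe sets were named through the platform's table (41091 with 1 symbol besides controls, 1801 with several, 11777 with none, of which the last 2 kinds gave no gene). Values were used as deposited, log2 transformed with no pseudocount. For 19775 genes the brightest probe set, by mean log2 signal, stood for the gene, and genes under the median probe set (17.8) were left out.

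One linear model per gene over all 9 arrays was moderated with a mean-variance trend, using limma 3.58.1 (R 4.3.3; 6 residual degrees of freedom), with Benjamini-Hochberg adjustment over 12678 genes. The members and lists were chosen with earlier results of these data known. The text names all members, up to 4 called genes per list and comparison with the largest change, and the 3 genes most correlated with CCND1, CDKN1A and the called member with the largest 72 h change. The fit was tested on simulated data in which 200 of the genes were changed. For 6 h against DMSO 5 of 137 calls were false. The false calls numbered 14 among 144 for 72 h against DMSO, and 16 among 159 for 72 h against 6 h. A simulated log2 change of 0.25 was recovered for 28.4%, 26.9% and 38.8% of such genes in these comparisons. The data themselves gave 3378 calls for 72 h against DMSO, so the simulated numbers of false calls may not carry over to them. Alternatives covered scaling, pseudocount, filter, probe set choice, variance model, array weights, the groups fitted, a replicate block and leaving out arrays. The precision is limited by the number of arrays. The fit gives each gene the same variance in all groups. The median SD of log2 signal within a group was 0.129 at 72 h, against 0.067 in DMSO and 0.075 at 6 h. The standard errors and adjusted p-values at 72 h may therefore be too small, and those at 6 h too large.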

Additional observations from a re-analysis of the deposited data

Results flagged for a closer look

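The 72 h and 6 h arrays differed, by limma's test of 1 time against the other, for 5 of the 8 tested genes. Over all genes 24% differed, 7.28% as higher and 16.7% as lower at 72 h. Time in culture cannot be told apart from length of exposure. CDKN1B was higher at 72 h than at 6 h by 0.56 on the log2 scale and CDKN1C by 0.47, while the difference was -0.48 for CCND3, -0.37 for CCNE1 and -0.38 for CDKN1A. With 3 arrays in each group, no array could be tested for standing apart from its group.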

How the results depend on the processing

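Of the 72 h calls against DMSO, those of CDKN1B, CDKN1A and CCNE1 held under all 23 alternatives, and that of CCND3 under 22. The CCND3 call ended with the probe sets averaged. CDKN1B and CDKN1A have 1 probe set each, so that alternative could not alter their log2 changes. The number of the 8 genes called at 72 h was 7, and 4 with all 54613 probe sets fitted together. At 6 h the number was 0, and 2 with array weights. Between the times it was 5, and 3 with the probe sets of a gene averaged. With 1 array left out the numbers ran from 4 to 7 at 72 h (4 without DMSO replicate 1), 0 to 1 at 6 h and 4 to 5 between the times. Over all genes, the 60 calls at 6 h became 37 with median centring, 22 with averaged probe sets, 23 without the variance trend and 211 with array weights, and 28 to 71 with 1 array left out. The 3378 calls at 72 h became 2086 with median centring, and 2294 to 4224 with 1 array left out. The 3037 calls between the times became 1782 with median centring, 2005 with averaged probe sets, 1875 without both 72 h arrays of low upper quartile, and 2125 to 4000 with 1 array left out. Both the upper quartile scaling and the fit without those 2 arrays were chosen after seeing the data. Without those 2 arrays the lone 72 h array is assumed to vary like the others, since its group then has no spread of its own. The median log2 change of all genes for 72 h against DMSO was then 0.0024, where it was -0.062 with all arrays. Uncalled changes turned sign as follows. CCND2 stood at 0.047 at 6 h with averaged probe sets, at -0.11 at 72 h and -0.062 between the times without both low arrays, and at -0.050 and -0.0020 without 72 h replicate 3 (with 1 array left out, the highest values were 0.12 and 0.17). CCND3 at 6 h stood at 0.00021 without DMSO replicate 1, with a lowest value of -0.12 with 1 array left out. CCNE2 at 6 h stood at 0.0017 with array weights and 0.031 without 6 h replicate 1, with a lowest value of -0.18 with 1 array left out. CCND1 between the times stood at -0.023 with array weights, and at -0.044 without 6 h replicate 1, -0.014 without 72 h replicate 1 and -0.011 without 72 h replicate 2, with a highest value of 0.064 with 1 array left out. The cause of these changes was not tested. With the replicate number as a block, 7 of the 8 genes were called at 72 h, 0 at 6 h and 4 between the times, where CDKN1C was lost, and over all genes 3193, 54 and 2840. Same-numbered arrays deviated together with correlations from -0.26 to 0.20, against -0.32 to 0.36 for arrays of other numbers, so the numbers were not taken as a pairing. No value was obtained for CCND2 and CDKN1C with the filter at the upper quartile, which removes them. Dim probe sets of CCND2, CDKN1C and CDKN2B limit what can be seen of these genes.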
